A study of Mus musculus with 66 samples.

Results

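The F2 cohort consists of 53 small RNA libraries made from tail vein plasma of mice that were all diagnosed with hepatocellular carcinoma (HCC) by histology. All 53 columns of counts deposited for the cohort were taken, out of 66 libraries in the series. The mice were the second generation of a cross of C3H sires with BALB/c dams, and were irradiated and bled 1, 6, 12 and 18 months later without being killed. According to the labels, 15 mice (7 females and 8 males) gave between 2 and 4 samples each, 15 at 1 month, 15 at 6 months, 13 at 12 months and 10 at 18 months, taken 9 to 731 days before a tumor was detected. The columns of counts carry only the running names f1 to f70, with gaps, and these names match no mouse number, month or title. No library was therefore given a mouse, sex or month, no test of a difference between groups was run, and each value is described over the 53 libraries by its lowest, median and highest. Several libraries come from the same mouse, so the 53 values are not independent. The other 13 libraries come from males of the inbred C3H strain, bled by cardiac puncture at necropsy. Of these, 8 mice had HCC and 5 did not (non-HCC). Their labels give more than 12 months after radiation for all 13 and do not tell which tumors arose spontaneously. By the paper, 5 of the 8 tumors were spontaneous and the others radiation-induced. The label thus cannot be taken to show that each C3H mouse was irradiated, and their treatment is not known mouse by mouse.

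MicroRNAs (miRNAs) are short RNAs that pair through their seed, bases 2 to 8, with messenger RNAs and lower their translation and stability. In plasma they circulate in vesicles or bound to proteins, and most of them are released by blood cells. Some are made almost only in one kind of cell. For example, miR-122 is made in hepatocytes, miR-451a and miR-144 come from 1 precursor transcript of erythroid cells, miR-1, miR-133a and miR-206 are made in muscle, and miR-205 and miR-203 in squamous epithelium and skin. From plasma alone, more cells that release a miRNA and more release per cell cannot be told apart.

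Mature sequences are shown for the miRNAs on which the results below turn, with the seed in capitals and the rest in lower case. They are from RefSeq on GRCm38.p6, where 1608 of the 1885 miRNA names of the F2 table had a sequence of the same name. The most abundant miRNA of every F2 library was miR-16-5p.
miR-16-5p: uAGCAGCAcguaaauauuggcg
It is encoded at chr14:61631936-61631957 (minus strand), in an intron of the noncoding gene Dleu2, and at chr3:69009918-69009939 (plus strand), in an intron of Smc4. The let-7 family took the largest share after the miR-16 and miR-486 entries, and its members share 1 seed.
let-7c-5p: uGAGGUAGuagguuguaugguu
let-7b-5p: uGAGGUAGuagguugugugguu
let-7e-5p: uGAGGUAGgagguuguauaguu
let-7i-5p: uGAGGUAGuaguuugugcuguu
Counted from the 5′ end, let-7b-5p differs from let-7c-5p at 1 base of 22 (A17G), let-7e-5p at 2 bases (U9G and G19A) and let-7i-5p at 4 bases (G12U, A17G, U18C and G19U), so that counts of such close members may be split between them. The let-7b gene (chr15:85707325-85707346) and 1 of the let-7c genes (chr15:85706616-85706637) lie in an exon of the noncoding gene Lncppara. The other let-7c gene (chr16:77599672-77599693) lies in an intron of Mir99ahg. The gene of let-7e (chr17:17830366-17830387) is in an intron of Spaca6. Erythroid miRNAs and the reference miRNA of the hemolysis ratio used below follow.
miR-451a: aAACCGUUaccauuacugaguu
miR-144-3p: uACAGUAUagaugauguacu
miR-23a-3p: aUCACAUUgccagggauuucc
The genes of miR-144 (chr11:78073047-78073066) and miR-451a (chr11:78073186-78073207) are neighbours on the plus strand, outside other annotated genes. Of the miRNAs whose levels went most closely with miR-122-5p, miR-148a-3p and miR-152-3p share a seed, and miR-192-5p is another miRNA of liver and gut.
miR-192-5p: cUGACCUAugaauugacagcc
miR-148a-3p: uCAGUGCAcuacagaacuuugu
miR-152-3p: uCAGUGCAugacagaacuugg
These lie at chr19:6264857-6264877 (plus strand), at chr6:51269829-51269850 (minus strand) and at chr11:96850439-96850459 (plus strand, in an intron of Copz2). Epithelial and muscle miRNAs with a wide range between the libraries were miR-205-5p, miR-200c-3p and miR-206-3p.
miR-205-5p: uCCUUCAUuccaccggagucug
miR-200c-3p: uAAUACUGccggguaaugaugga
miR-206-3p: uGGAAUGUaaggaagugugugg
The gene of miR-205 (chr1:193507503-193507524, minus strand) is in an exon of the noncoding gene 4631405K08Rik, that of miR-200c (chr6:124718324-124718346, minus strand) in an intron of Gm15884, and that of miR-206 (chr1:20679055-20679076, plus strand) in an exon of Gm28653. By miR-3971, 12 libraries stood apart, and levels of miR-3154 and miR-7648-5p went with it.
miR-3971: cUCCCCACcccuguaccaguga
miR-3154: cAGAAGGGgagucgggagcgga
miR-7648-5p: cCGCGUUCcgggcucggcgc
They lie on different chromosomes, at chr11:75551480-75551501 (plus strand, in an intron of Slc43a2), at chr2:32318317-32318338 (plus strand, between genes) and at chr15:90224360-90224379 (plus strand, in an exon of Alg10b).

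Counts are of unique molecular indices (UMIs), by which amplified copies of 1 molecule are counted once. The F2 libraries held 205194 to 3020311 miRNA UMIs with a median of 846338. The C3H libraries held 9513136 to 14247488 with a median of 11825706, a ratio of the medians of 14.0. The F2 table lists 1885 miRNAs, of which 10 were at 0 in all 53 libraries and 307 were above 0 in all 53. Values from 1 to 9 do not occur, the smallest nonzero count being 10. A listed 0 therefore stands for fewer than 10 UMIs.

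The number of miRNAs above 0 hardly followed depth. It was 671 to 1653 per F2 library with a median of 1182, and 948 to 1694 with a median of 1214 in the deeper C3H libraries. Within F2, Spearman's rho of this number with the miRNA UMIs was 0.27 over the 53 libraries. The rare entries behaved alike. For the 1135 miRNAs of both tables that stayed under 100 UMIs in each of the 66 libraries, the summed UMIs were 2763 to 24662 (median 10453) in F2 and 7592 to 26920 (median 11964) in C3H. These entries took 0.327% to 4.86% of the miRNA UMIs in F2 and 0.0533% to 0.214% in C3H. A share set by counts of this size is thus higher in the shallower cohort, and raw UMIs are given beside such shares.

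**Figure D1:**
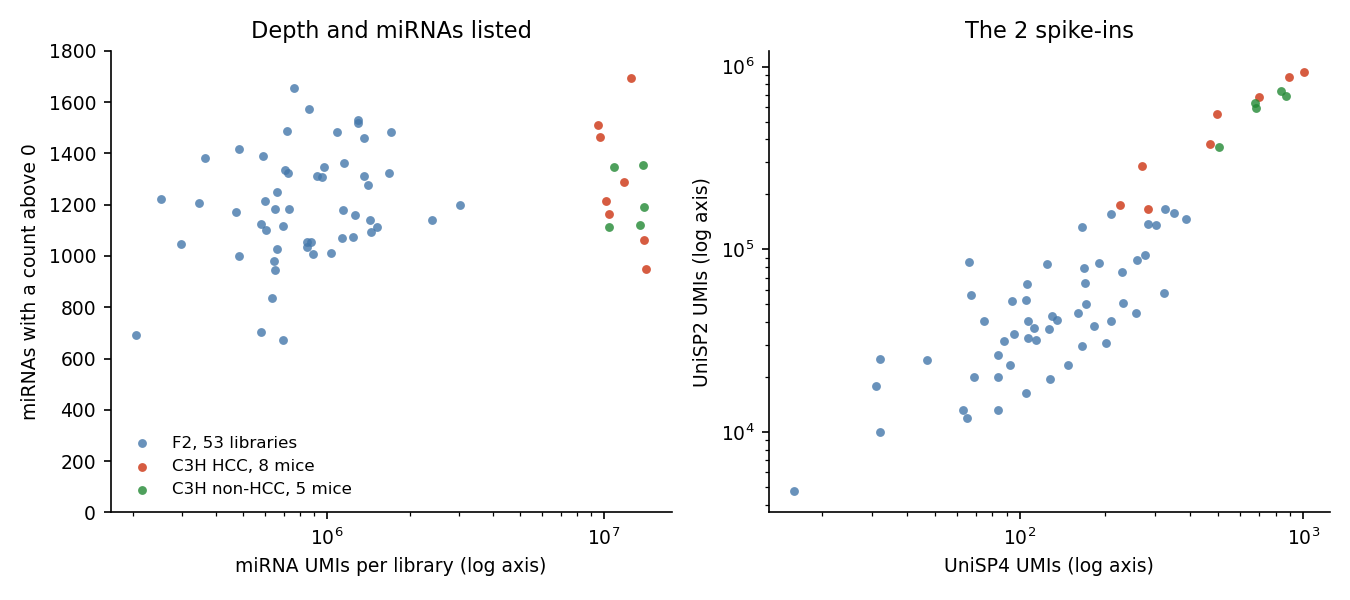
Left, miRNAs with a count above 0 (linear axis) against miRNA UMIs (log axis) in each of the 53 F2 libraries and the 8 HCC and 5 non-HCC C3H mice. Right, UMIs of UniSP2 against UniSP4 (both log axes). The C3H libraries lie far to the right in depth with a like number of miRNAs, and carry more UniSP2 for the same UniSP4 than most F2 libraries.

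Synthetic RNAs put into the plasma ahead of RNA isolation, UniSP2 and UniSP4, did not keep 1 ratio to each other. UniSP2 gave 4716 to 166232 UMIs in F2 and UniSP4 gave 16 to 386. Their ratio ran from 153 to 1299 in F2 with a median of 332, and from 584 to 1116.5 in C3H with a median of 875. UniSP2 made up 99.3% or more of the spike-in UMIs in every F2 library, and the mean of both is in effect UniSP2. Spearman's rho between both over the F2 libraries was 0.72. Levels on the spike-in scale below are log2 of the UMIs plus 1 over the mean of both spike-ins. Shares are percent of the miRNA UMIs of a library, and do not use the spike-ins.

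The most variable miRNA set 12 libraries apart from the rest. The entry with the largest SD on the spike-in scale among the 307 miRNAs was miR-3971, a little-studied miRNA, at 0.00242% to 0.599% (18 to 4233 UMIs). Its 12 lowest libraries were f1, f2, f3, f4, f28, f29, f30, f31, f67, f68, f69 and f70, at 0.00242% to 0.0116%. The next libraries, f48 and f47, were at 0.0308% and 0.0314%, and the median of the other 41 was 0.149%. The 12 names are runs of neighbouring numbers, while the numbers that neighbour f48 and f47 in the table, f45 and f49, had 0.182% and 0.0631%. Levels of miR-3154 went with it (rho = 0.98 on the spike-in scale and 0.96 on shares) and were 0.00132% to 0.00866% in the 12 libraries and 0.00553% to 0.098% in the other 41. MiR-7648-5p (rho = 0.96 with miR-3971 on either scale) was at 0.000966% to 0.00634% in the 12 and 0.00353% to 0.0361% in the other 41. For both of these miRNAs the 12 libraries thus overlapped the others. The 12 were taken as the lowest in miR-3971, so that their separation by miR-3971 itself is set by that choice. The labels name no run or batch, the groups of neighbouring names could be mice, months or runs, and these cannot be told apart. Without the 12 libraries the SD of miR-3971 on the spike-in scale was 1.31 in place of 2.38, and rho with miR-3154 was 0.98 (0.94 on shares). Leaving out the lowest values of a miRNA tends to lower its SD by construction.

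**Figure D2:**
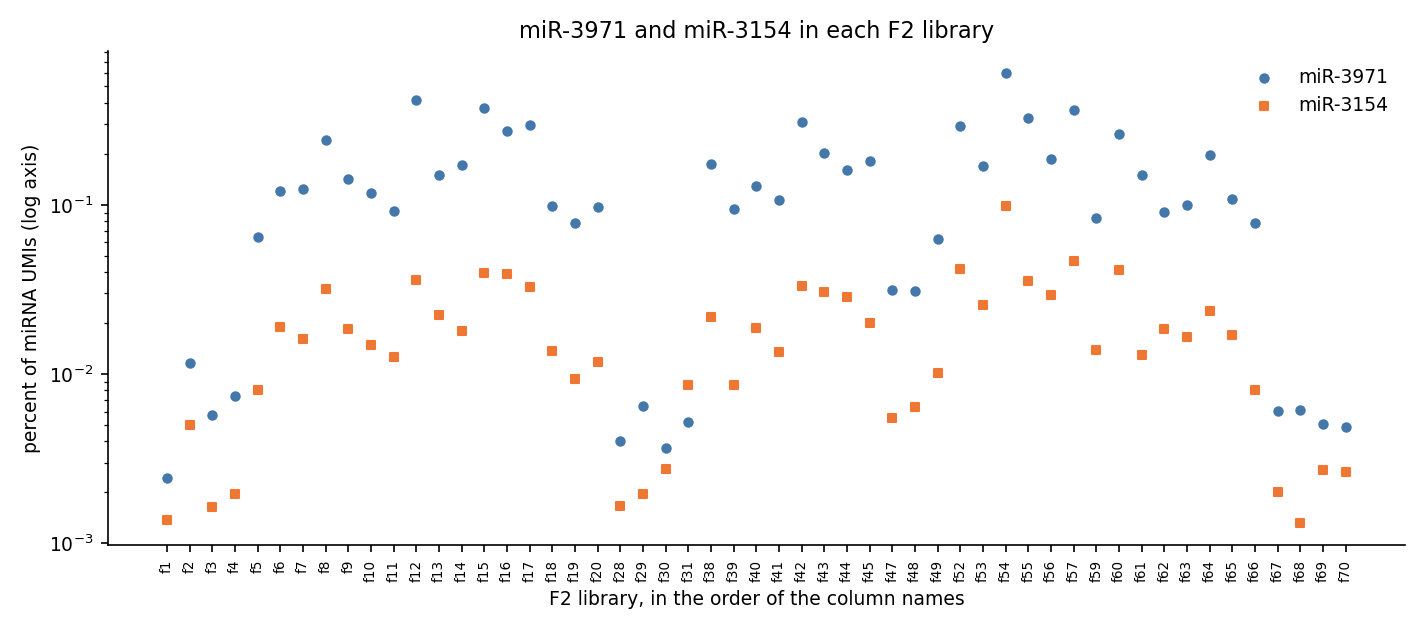
Share of miRNA UMIs (log axis) of miR-3971 and miR-3154 in each of the 53 F2 libraries, in the order of the column names. The libraries f1 to f4, f28 to f31 and f67 to f70 have the 12 lowest shares of miR-3971, all at or below 0.0116%.

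Over the 1378 pairs of F2 libraries, the smallest chi-square per degree of freedom, over miRNAs above 0 in both, was 13.0 (f62 and f66), where sampling noise alone gives a value near 1. No 2 F2 columns held identical values. Of the C3H mice, HCC 1 and 6 (31.9), 2 and 5 (58.3), and 3 and 7 (63.7) were more alike than other C3H pairs, the next being at 95.9. This value is taken on raw UMIs and grows with depth at a like difference in shares. The C3H values thus cannot be set against those of the shallower F2 libraries. These HCC mice differed by more than sampling noise and are kept as 8 mice, as labelled, and the independence of the 8 HCC values was not tested.

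Few miRNAs made up most of the plasma miRNA. The 10 with the highest median share together took 51.6% to 76.9% of the miRNA UMIs, with a median of 66.2%. MiR-16-5p, which is abundant in red cells and in many other blood cells, was first in 53 of 53 libraries, at 15.3% (f56) to 47.5% (f17) with a median of 28.8%. It took 5.74% to 32.1% in HCC and 28.6%, 26.1%, 27.9%, 28.7% and 26.7% in non-HCC C3H mice. The range of the F2 libraries covers the 5 non-HCC values.

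Entries of miR-486, an erythroid and muscle miRNA with near-identical gene copies, came next. MiR-486b-5p was at 6.18% to 20.4% (median 10.9%), miR-486a-5p at 2.45% to 8.67% (median 4.10%) and miR-486a-3p at 0.622% to 2.41% (median 1.26%). How reads of such copies are split is uncertain. The log2 ratio of miR-486b-5p to miR-486a-5p was 1.03 to 1.98 in F2 and lay below each of the 13 C3H libraries (8 HCC at 2.08 to 2.27, 5 non-HCC at 2.12, 2.09, 1.98, 2.04 and 2.10), although the highest F2 library, f67, and the lowest C3H library are equal to 2 decimals.

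Members of the let-7 family, which restrains proliferation genes in many tissues, took 4 of the 10 highest places. Let-7c-5p was at 0.728% (f60) to 10.5% (f70) with a median of 5.20%. Let-7b-5p was at 2.11% to 9.03% with a median of 4.44%, let-7i-5p at 0.847% to 3.02% (median 1.62%) and let-7a-5p at 0.872% to 2.98% (median 1.60%). A list of 9 entries, let-7a-5p to let-7g-5p, let-7i-5p and miR-98-5p, was chosen after their shares were seen. Let-7k (185 to 1305 UMIs), which has the same seed, was not on it. The 9 were above 0 in every library and together took 5.93% to 25.4% (median 14.2%). C3H mice with HCC had 3.38% to 8.15%, and those without had 9.59%, 13.0%, 10.0%, 10.2% and 14.0%.

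The members differed in how they stood to the C3H libraries. By share, let-7b-5p and let-7e-5p were higher in each of the 53 F2 libraries than in each of the 13 C3H libraries. Let-7b-5p was at 0.725% to 1.38% in HCC mice and at 1.93%, 1.70%, 1.99%, 1.88% and 1.90% in non-HCC mice. Let-7e-5p was at 0.033% to 0.26% in F2 (218 to 2659 UMIs), at 0.0082% to 0.0122% in HCC mice and at most 0.0182% in non-HCC mice. Let-7i-5p and let-7d-5p lay the other way. Each F2 library was below each of the 5 non-HCC values of let-7i-5p (3.31%, 5.30%, 3.25%, 3.72% and 5.77%), and F2 let-7d-5p reached 0.541% where the non-HCC mice had at least 0.579%. On the spike-in scale this held for 39 and 37 of the 53 libraries. The log2 ratio of let-7c-5p to let-7i-5p, which uses no scale, was -0.65 to 2.83 in F2 (median 1.55), above each C3H library in 51 of 53 F2 libraries, and -2.31 to -0.53 in C3H.

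These counts stand against a background of many differences by share. Of 152 miRNAs with a median of at least 100 UMIs in both cohorts, the F2 range lay above all 13 C3H libraries for 10 (6.58%) and below them for 4 (2.63%). Against the 5 non-HCC mice alone it lay above for 17 (11.2%) and below for 18 (11.8%). Of the 9 let-7 entries, 2 were above all C3H libraries, and against the non-HCC mice 2 were above and 2 below. On the spike-in scale none of the 9 was apart from the C3H libraries (background 0.658% above and 0.0% below), with let-7e-5p higher in 49 of 53 libraries. With TMM, where 35.5% of the 152 lay below all C3H libraries and 0.0% above, 2 of the 9 were below. Cohort, strain, sex, age, the site of bleeding, depth and any sequencing run go together between F2 and C3H and cannot be told apart. Against the non-HCC mice, the diagnosis of HCC goes with them too. All F2 mice were irradiated, while this is not known for each C3H mouse.

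Liver miRNAs had a long upper tail in F2 plasma. MiR-122-5p took 0.767% (f3) to 23.5% (f5) of the miRNA UMIs with a median of 2.31%, which is 4972 to 395060 UMIs. After f5, the highest libraries were f55 at 15.1%, f39 at 14.3%, f12 at 11.9% and f10 at 11.7%. Mice of the C3H strain with HCC had 2.20% to 42.7% with a median of 23.1%, and those without had 0.211%, 0.326%, 0.424%, 0.180% and 0.221%. Each of the 53 F2 libraries was above each of the 5 non-HCC mice, by share and on the spike-in scale, where the F2 median was higher by 2.72 (log2). With TMM factors over both cohorts, which lower all abundant F2 miRNAs, this held for 25 of 53 libraries. The F2 median was below the HCC median on the 3 scales.

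Other liver miRNAs spread less. MiR-192-5p was at 0.31% to 4.99% (median 0.828%), miR-148a-3p at 0.309% to 2.41% (median 0.564%) and miR-194-5p at 0.07% to 0.423% (median 0.153%). Of these, miR-148a-3p was above each of the 5 non-HCC mice (0.159%, 0.150%, 0.111%, 0.169% and 0.176%) in all 53 libraries by share and in 41 on the spike-in scale. MiR-802-5p, at 16 to 527 UMIs, was above them by share in all 53 libraries and in 46 on the spike-in scale. The passenger strand miR-122-3p was at 0 in 9 of 53 libraries and reached 147 UMIs. The 7 liver miRNAs together took 2.08% to 27.5% in F2 (median 4.03%), 4.50% to 54.2% in HCC mice and 1.14%, 1.31%, 1.18%, 1.08% and 1.22% in non-HCC mice. By this sum the F2 libraries lay above the non-HCC mice and overlapped the HCC mice. The list member miR-101b-3p went the other way, with an F2 median of 0.109%. It was below each of the 5 non-HCC values (0.214%, 0.255%, 0.174%, 0.232% and 0.388%) in 50 of 53 libraries by share. On the spike-in scale this held for 39. Of the 5 liver miRNAs among the 152 abundant ones, 2 were above all non-HCC mice by share (background 11.2%), 1 on the spike-in scale (background 3.95%) and 0 with TMM (background 0.658%). Below all non-HCC mice lay 0 by share (background 11.8%), 0 on the spike-in scale (background 0.0%) and 1 with TMM (background 53.9%).

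The proportion of miR-122-5p to miR-192-5p varied between the libraries. Its log2 was -0.23 (f41) to 3.83 (f10) with a median of 1.54, against -1.16, -0.48, 0.15, -1.15 and -0.55 in non-HCC mice. It was above all 5 in 51 of 53 libraries. In HCC mice it was 0.48 to 2.59.

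Red cell miRNAs did not move as 1 group. MiR-451a was at 0.179% (f2) to 2.59% (f41) with a median of 1.14%. It was at 0.424% to 4.24% in HCC mice and at 6.71%, 7.42%, 6.57%, 6.33% and 8.07% in non-HCC mice. Each F2 library was below each non-HCC mouse by share, and 51 of 53 were on the spike-in scale. MiR-144-3p, from the same transcript, was at 0.0313% to 0.137% (median 0.0756%), within the range of the HCC mice apart from its upper end, and below the 5 non-HCC values in 46 of 53 libraries by share and in 27 on the spike-in scale. The whole red cell list of 6 miRNAs took 20.3% (f56) to 51.1% (f17) with a median of 35.1%, against 6.69% to 39.5% in HCC mice and 38.7%, 36.5%, 38.9%, 38.5% and 37.5% in non-HCC mice. This sum is set by miR-16-5p, which is not restricted to red cells. Without it in the list and the total, the median was 8.02%. Of the 5 abundant members, 1 was below all non-HCC mice by share (background 11.8%), 0 on the spike-in scale (background 0.0%) and 5 with TMM (background 53.9%). The list member miR-486a-5p went the other way by share, above each non-HCC mouse in 24 of 53 libraries and below each in 0. On the spike-in scale it was above in 24 and below in 15. Outside the list, miR-486a-3p was above in 46 and below in 0 by share, and miR-486b-5p above in 6 and below in 19. MiR-25-3p, of the Mcm7 locus and also abundant in red cells, was at 0.718% to 2.36% (median 1.29%). By share it was below each non-HCC mouse (3.98%, 4.19%, 3.77%, 4.40% and 3.42%) in all 53 libraries, and in 46 on the spike-in scale.

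The ratio of miR-451a to miR-23a-3p, a stable plasma miRNA, is in use as a sign of red cell lysis and needs no scale. In F2 its log2 was -1.93 to 2.57 with a median of 1.27. It was below 0 in f12 (-1.93), f43 (-1.82), f16 (-1.65), f2 (-1.16) and f55 (-0.67), and the next was f28 at 0.10. HCC mice had -1.39 to 3.41 and non-HCC mice 3.80, 4.38, 4.01, 3.58 and 4.40. Each of the 53 libraries was below each non-HCC mouse. The study screened the plasma for hemoglobin, and no value from that screen was used here.

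The 5 libraries with a log2 ratio below 0 also held more miR-122-5p and less let-7c-5p than most. Their miR-122-5p shares were 11.9% (f12), 3.57% (f43), 8.73% (f16), 6.58% (f2) and 15.1% (f55), all above the F2 median of 2.31%. Their let-7c-5p shares were 1.12%, 2.04%, 0.897%, 1.01% and 0.825%, all below the F2 median of 5.20%. High miR-122-5p also occurred without a low ratio, as f5 had a log2 ratio of 0.95, f39 of 0.52 and f10 of 1.74. Without the 5 libraries the median share of miR-122-5p was 2.14% and that of the liver list 3.99%. Without the 12 libraries lowest in miR-3971 these were 2.57% and 4.03%.

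**Figure D3:**
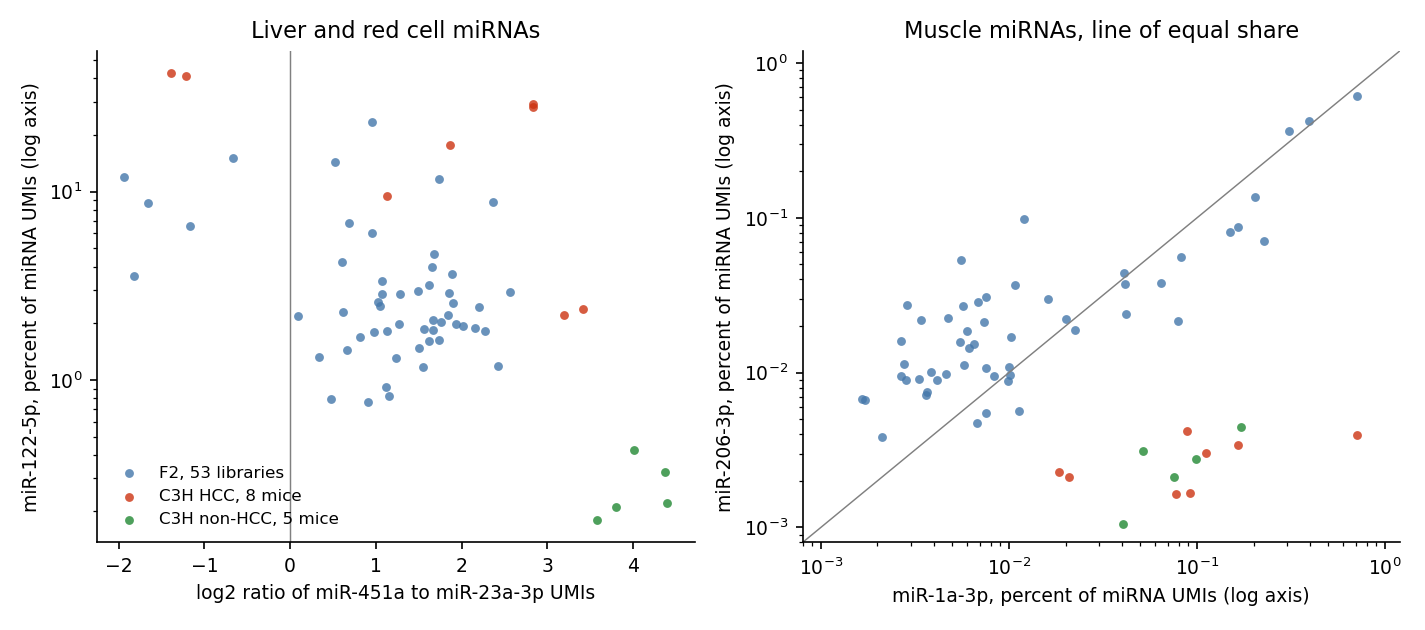
Left, share of miR-122-5p (log axis) against the log2 ratio of miR-451a to miR-23a-3p in each library, with 5 F2 libraries and 2 C3H HCC mice left of 0. Right, share of miR-206-3p against miR-1a-3p (both log axes) with the line of equal shares, where the F2 libraries lie about the line and each of the 13 C3H libraries lies below it.

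Muscle miRNAs were the most uneven. MiR-1a-3p, made in skeletal and heart muscle, was at 0.00166% (f69) to 0.706% (f15) with a median of 0.00754%, which is 14 to 5971 UMIs with a median of 52. MiR-206-3p, which is made in skeletal muscle and not in heart, was at 0.00386% to 0.608% (f15) with a median of 0.0185%, or 17 to 5145 UMIs. Both were high in the same few libraries. The 6 libraries with the most miR-1a-3p were f15, f5, f45, f28, f12 and f31, at 5971, 2774, 2764, 2614, 2311 and 1069 UMIs, and in these miR-206-3p had 5145, 1471, 1838, 810, 2496 and 1258 UMIs. The muscle list of 5 miRNAs took 0.0113% (f10) to 1.499% (f15) with a median of 0.0560%, against 0.0383% to 1.47% in HCC and 0.0737% to 0.368% in non-HCC mice. Spearman's correlation between both was 0.84 on the spike-in scale and 0.69 on shares.

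The proportion of the pair separated the cohorts. The log2 ratio of miR-206-3p to miR-1a-3p was -1.86 (f8) to 3.18 (f29) in F2 with a median of 0.94. In the 6 libraries with the most miR-1a-3p, where both are well counted, it was -1.69 to 0.23. It was -7.50 to -3.02 in HCC mice and -5.15, -5.27, -5.15, -4.04 and -5.27 in non-HCC mice. Each F2 library was above each C3H library in this ratio, which does not depend on the scale. In UMIs, C3H mice had 1807 to 89558 of miR-1a-3p and 146 to 616 of miR-206-3p. MiR-499-5p, a heart and slow muscle miRNA, was at 0 in 38 of 53 F2 libraries, where at most 28 UMIs were counted, and had 121 to 5369 UMIs in C3H. MiR-133a-3p was above 0 in 51 libraries and reached 1451 UMIs. MiR-208b-3p, another heart and slow muscle miRNA, was at 21 to 864 UMIs in F2 and 19 to 1587 in C3H, and lay opposite to miR-499-5p. By share, 49 of 53 F2 libraries were above each non-HCC mouse and 0 below. On the spike-in scale 47 were above and 0 below, and with TMM 24 were above and 1 below. MiR-208b-3p did not go with miR-1a-3p (rho = -0.02 on the spike-in scale and -0.11 on shares). The F2 plasma was taken from the tail vein and the C3H plasma from the heart, and this cannot be told apart from the other differences between the cohorts.

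The summed share of epithelial and skin miRNAs was higher in most F2 libraries, and its members differed in this. Together the 6 took 0.204% (f39) to 4.43% (f70) with a median of 0.966%, and 44 of 53 libraries were above each C3H library (0.142% to 0.709%). MiR-205-5p, of squamous epithelium, was at 0.0905% (f39) to 3.12% (f70), median 0.537%, against 0.0437% to 0.108% in HCC and 0.131%, 0.0691%, 0.220%, 0.508% and 0.0393% in non-HCC mice. The non-HCC mouse with 0.508% lies within the F2 range. MiR-203-3p, of skin, was at 0.0375% to 0.86% (median 0.227%). MiR-200c-3p, which keeps epithelial cells from changing to a mesenchymal state, was at 0.0178% to 0.253% (median 0.0874%). By share, the libraries above each C3H library numbered 52 for miR-203-3p, 42 for miR-200c-3p and 29 for miR-205-5p, but 9 for miR-141-3p and 0 for miR-200a-3p and miR-200b-3p. On the spike-in scale the median difference of miR-205-5p from the non-HCC mice was 2.25 (log2), with 19 of 53 libraries above all of them, and with TMM it was -0.36. None of the 6 was apart from all 13 C3H libraries by share (background 6.58% above and 2.63% below), on the spike-in scale (0.658% and 0.0%) or with TMM (0.0% and 35.5%), and at such backgrounds 0 of 6 says little.

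MiRNAs of other sources took small shares. The 7 platelet and leukocyte miRNAs took 1.99% (f2) to 8.18% (f30) with a median of 4.17%, with 3.36%, 3.89%, 3.04%, 3.66% and 5.30% in non-HCC mice. Within them miR-150-5p, of mature lymphocytes, was at 0.179% to 1.47%. Libraries above each C3H library numbered 39 of 53 by share, 13 on the spike-in scale and 0 with TMM. By share these numbered 39 for miR-155-5p and 24 for miR-223-3p, but 7 for miR-126a-3p, 3 for miR-146a-5p and 0 for miR-142a-3p and miR-142a-5p. None of the 7 was apart from all C3H libraries on the 3 scales. The background was 6.58% above and 2.63% below by share, 0.658% and 0.0% on the spike-in scale, and 0.0% and 35.5% with TMM. With TMM, 1 was below all non-HCC mice (background 53.9%). MiR-223-3p, of myeloid cells and platelets, was at 0.299% to 3.46% with a median of 1.07%. The 3 brain miRNAs took 0.0546% to 0.316%, nearly all of it miR-128-3p, while the neuronal miR-124-3p was at 0 in 40 of 53 libraries. The 3 pancreas miRNAs took 0.0405% to 0.325%. Of these, miR-217-5p was above all C3H libraries by share and on the spike-in scale, but its UMIs were 114 to 373 in F2 and 90 to 248 in C3H, so that its raw counts were alike at unlike depth.

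**Figure D4:**
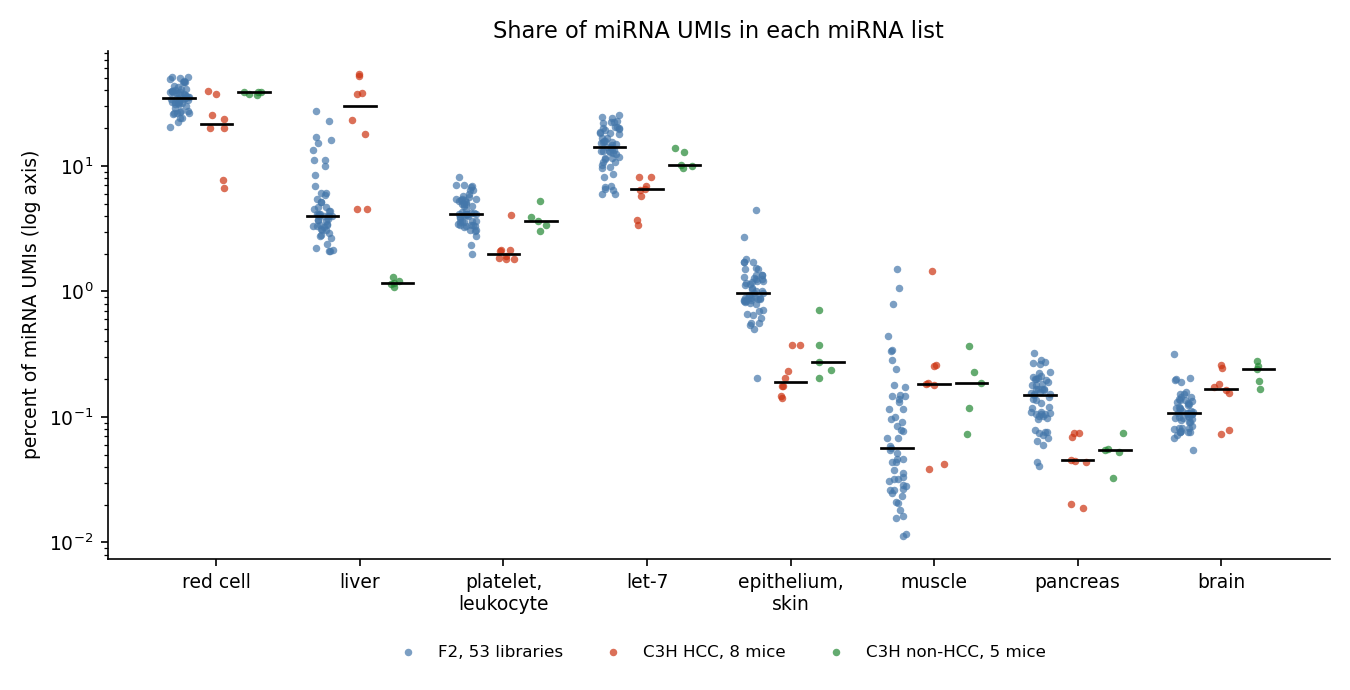
Share of miRNA UMIs (log axis) of 8 miRNA lists in each of the 53 F2 libraries, the 8 HCC and the 5 non-HCC C3H mice, with bars at the medians. For liver the F2 median lies between those of the C3H groups (1.18%, 4.03% and 30.3% for non-HCC, F2 and HCC), and the F2 libraries overlap the HCC mice. The F2 libraries spread most for muscle.

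The 10 mouse counterparts of plasma miRNAs raised in human HCC were all listed, and 7 of them were above 0 in each of the 53 libraries. Together they took 1.42% (f29) to 25.1% (f5) with a median of 3.53%, against 2.69% to 45.5% in HCC and 0.501% to 0.812% in non-HCC mice. MiR-122-5p and miR-148a-3p, given above, led, followed by miR-125b-5p at 0.0831% to 1.09% (median 0.449%). MiR-574-3p was at 0.0155% to 0.128% (median 0.0444%), miR-100-5p at 0.00605% to 0.0502% (median 0.0176%), miR-365-3p at 0.00501% to 0.0271% (median 0.0119%) and miR-34a-5p, a target of p53, at 0.00282% to 0.0356% (median 0.00665%). MiR-193a-5p was at 0 in 5 libraries, and miR-214-3p and miR-224-5p in 1 each. Counts of miR-34a-5p (19 to 272 UMIs, median 51) and miR-193a-5p (at most 53 UMIs) were near the lower limit. Of the 5 markers among the 152 abundant miRNAs, 2 were above all non-HCC mice by share (background 11.2%), namely miR-122-5p and miR-148a-3p, which are also on the liver list, and 0 were below (background 11.8%). On the spike-in scale 1 was above (background 3.95%), and with TMM 0 were (background 0.658%). MiR-34a-5p went the other way by share, as 42 of 53 libraries (32 on the spike-in scale) were below the 5 non-HCC values (0.0114%, 0.0152%, 0.00933%, 0.0115% and 0.0118%).

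How much a miRNA varied between the libraries depended on the scale and on the miRNA. Over the 307 miRNAs above 0 in all 53 libraries, the median SD of the log2 level was 1.09 on the spike-in scale, 0.93 with UniSP4 alone, 0.73 by share and 0.67 with TMM. The SD that counting alone gives at the median count had a median of 0.13, and each of the 307 miRNAs exceeded its own on the spike-in scale. Levels on that scale all carry the spike-in counts and depth of their library, so this count says little about single miRNAs. After miR-3971, the largest SDs on the spike-in scale were those of miR-1a-3p (2.35), miR-1b-5p (2.04), miR-208b-3p (1.82) and miR-3154 (1.77). The smallest were those of miR-141-3p (0.69), miR-182-5p (0.76), miR-187-3p (0.77), miR-375-3p (0.83) and miR-215-3p (0.86). By share, the steadiest of the 161 miRNAs with a median of at least 100 UMIs were miR-676-3p (SD 0.24), let-7d-5p (0.25), miR-148b-3p (0.28), miR-744-5p (0.30) and miR-142a-3p (0.31), and miR-122-5p had an SD of 1.13.

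Levels of nearly all miRNAs moved together on the spike-in scale. The median Spearman's rho over the 46971 pairs of the 307 miRNAs was 0.69 on the spike-in scale, 0.55 with UniSP4 alone, 0.23 by share and 0.09 with TMM. Over pairs of the 161 miRNAs with a median of at least 100 UMIs these were 0.72, 0.60, 0.13 and 0.42. In the 161 abundant miRNAs, 69.0% of the variance lay on 1 principal component on the spike-in scale and 21.1% by share. All miRNAs of a library share its spike-in counts and its depth, and shares of 1 library add up to a fixed total. So a rho is read here against the median over all pairs on its own scale, and a rho of abundant miRNAs also against that over abundant pairs.

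**Figure D5:**
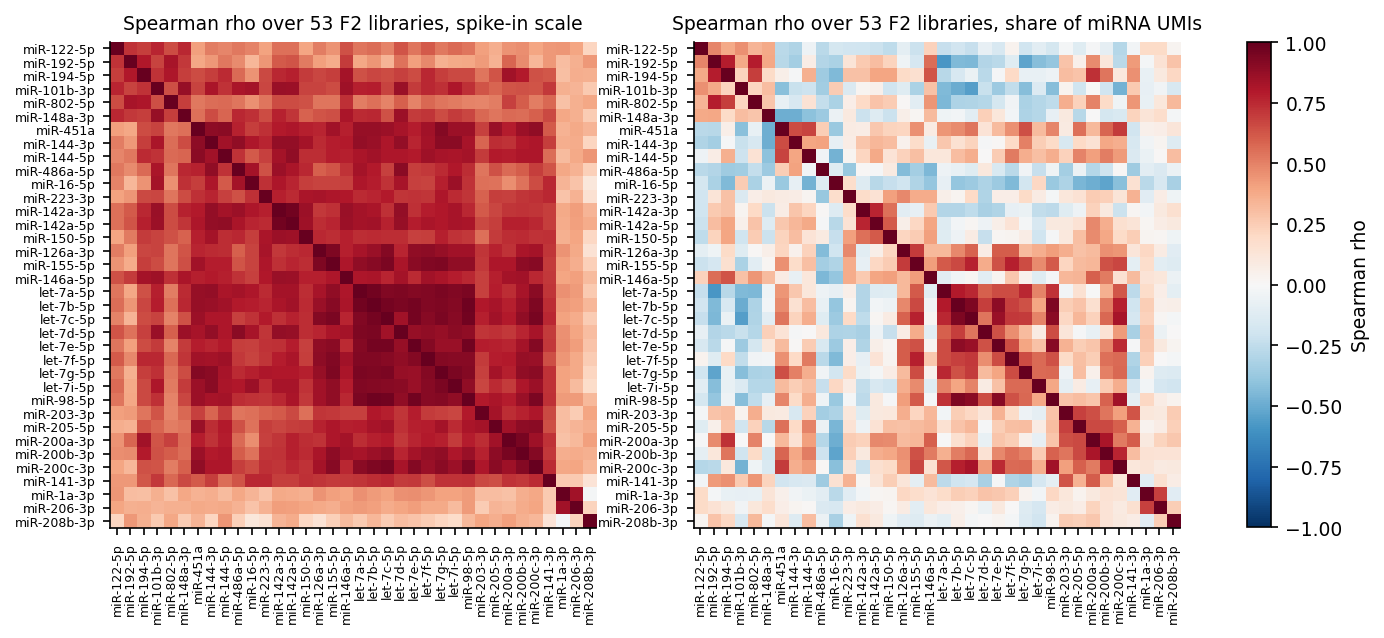
Spearman's rho over the 53 F2 libraries between list miRNAs above 0 in every library, on the spike-in scale (left) and by share (right), from -1 (blue) to 1 (red). On the left nearly all pairs are red, and on the right blocks stay for let-7, for liver, for the miR-200 family with miR-205-5p and for miR-1a-3p with miR-206-3p.

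Within lists, let-7 was the tightest. Its median rho was 0.92 on the spike-in scale, 0.84 with TMM and 0.65 by share. The medians over pairs of the abundant miRNAs were 0.72, 0.42 and 0.13 on these scales. Let-7c-5p went with miR-98-5p (0.96, 0.95 and 0.90 on the same 3 scales), let-7e-5p (0.96, 0.90 and 0.86) and let-7b-5p (0.96, 0.96 and 0.94). The 6 epithelial miRNAs had medians of 0.81, 0.61 and 0.61. MiR-205-5p went with miR-200c-3p (0.91, 0.64 and 0.59) and miR-200b-3p (0.90, 0.71 and 0.66), which are encoded on other chromosomes. The 6 liver miRNAs above 0 throughout had medians of 0.73, 0.60 and 0.38. The red cell list, with medians of 0.82 and 0.60, fell to 0.10 by share, where single pairs ran from -0.47 to 0.68. Pairs with miR-16-5p, which is not restricted to red cells, were all negative by share, at -0.47 to -0.08. Of the pairs without it, that of miR-486a-5p with miR-144-5p was at -0.04 and the others were at 0.25 to 0.68. A median of this list without miR-16-5p was not computed.

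The miRNAs most like miR-122-5p on the spike-in scale were miR-101b-3p (rho = 0.76, and 0.46 by share), miR-152-3p (0.76 and 0.36), miR-148a-3p (0.75 and 0.38), miR-192-5p (0.73 and 0.49) and miR-130a-3p (0.72 and 0.47). These were chosen for their rho on the spike-in scale, where the median over pairs of the 161 abundant miRNAs was 0.72. Those most like miR-451a were miR-186-5p (0.93, and 0.82 by share), miR-222-3p (0.92 and 0.72), let-7g-5p (0.92 and 0.65), miR-7a-5p (0.91 and 0.55) and miR-144-5p (0.90 and 0.68). Between miR-122-5p and miR-451a, rho was 0.41 on the spike-in scale and -0.27 by share, below the median over all pairs on both.

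Of 12 pairs that come from 1 primary transcript or gene cluster, 9 could be followed in all 53 libraries. The highest rho on the spike-in scale were those of miR-25-3p and miR-93-5p (0.97, and 0.72 by share), miR-200a-3p and miR-200b-3p (0.95 and 0.82), miR-182-5p and miR-183-5p (0.91 and 0.80), and miR-144-3p and miR-451a (0.90 and 0.66). MiR-192-5p and miR-194-5p had 0.80 and 0.79. MiR-127-3p and miR-434-3p, of the imprinted Dlk1-Dio3 region, had 0.85 and 0.68, with a median of 31 and 74 UMIs. The lowest by share were miR-17-5p and miR-92a-3p (0.85 and 0.03) and miR-100-5p and let-7a-5p (0.76 and 0.09). Several genes encode let-7a and miR-92a, and miR-194-5p is encoded on chr1 and on chr19, so that these mature miRNAs do not stand for 1 transcript. Whether this bears on the rho of a pair was not tested.

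Set beside C3H over all miRNAs, the outcome turned on the scale and on rare entries. Of 1793 miRNAs above 0 in at least 5 of the 66 libraries, the F2 range lay above all 13 C3H libraries for 65 (3.63%) and below for 0 (0.0%) on the spike-in scale. Of the 65, 52 had a median under 100 UMIs in F2. With TMM factors, 33 (1.84%) were above and 117 (6.53%) below, and by share 106 (5.91%) were above and 6 (0.335%) below. The median log2 difference of F2 from the 5 non-HCC mice over the 1793 miRNAs was 3.30 on the spike-in scale, 0.94 with TMM and 3.52 by share. Over the 152 abundant miRNAs it was 0.29, -2.14 and 0.42, so that the large positive shift lay in the rare entries, and single differences above are read against these medians.

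The 5 miRNAs with the widest gap above C3H on the spike-in scale were miR-3094-5p, miR-1941-5p, miR-19b-2-5p, miR-101b-5p and miR-615-3p. MiR-1941-5p had 347 to 3015 UMIs in F2 and 20 to 84 in the deeper C3H libraries, and miR-3094-5p had 46 to 1097 and 0 to 13. MiR-615-3p had 169 to 942 and 11 to 43. MiR-19b-2-5p had 35 to 572 and 0 to 34, and miR-101b-5p had 38 to 647 and 0 to 21. All 5 were thus higher in F2 in raw UMIs as well, at a lower depth. Among the abundant miRNAs, those above all C3H libraries by share were let-7b-5p, let-7b-3p, let-7e-5p, let-7j, let-7k, miR-16-2-3p, miR-184-3p, miR-195a-5p, miR-217-5p and miR-3969, and those below were miR-148b-3p, miR-20a-5p, miR-22-3p and miR-221-3p. MiR-22-3p was at 0.0122% to 0.127% in F2 and 0.315% to 0.696% in C3H, where the medians differed by -3.04 (log2). MiR-221-3p, made in vessels and blood cells, was at 0.0361% to 0.269% and at least 0.567% in C3H. On the spike-in scale, 52 of 53 F2 libraries were below each C3H library for miR-22-3p and 51 for miR-221-3p.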

How the data were processed

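Plasma small RNA was sequenced from 66 samples with molecular barcodes. The authors mapped reads to GRCm38, named miRNAs after miRBase, merged reads by barcode and deposited raw UMI counts per miRNA without normalization, with the counts of both spike-ins. The submitters' processing notes also name FastQC and Bowtie2. C3H columns were matched to mice by the mouse name in the labels. F2 columns match no label and were used as 53 libraries of 1 group. No value from 1 to 9 occurs in the deposited counts, which limits the precision of rare miRNAs. The F2 libraries held 205194 to 3020311 miRNA UMIs. The Poisson SD given beside the SD between libraries covers counting error only.

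From the counts, the levels were log2 of UMIs plus 1 over the mean of UniSP2 and UniSP4, the spike-in scaling of the study's methods. Other scales were edgeR TMM factors (edgeR 4.0.16, R 4.3.3) and total miRNA UMIs. The study's further normalization to HCC-free mice of the same age was not applied, so the F2 levels are not corrected for age. Lowest, median and highest values, SDs, Spearman's rho and non-overlap of ranges were computed in Python 3.11.15 (pandas 2.3.3, numpy 2.4.6) by scripts that were tested on simulated data. No p-value was computed. C3H groups were searched for single outlying mice by Dixon's criterion. Named miRNAs were the members of lists of red cell, liver, platelet and leukocyte, muscle, epithelium and skin, brain and pancreas miRNAs, the 10 human HCC markers, the 10 with the highest median share, the 5 largest and smallest SDs, the 5 most like miR-122-5p and miR-451a, the 5 widest gaps to C3H in each direction (none was below), 12 pairs of 1 transcript and miR-23a-3p. Others, such as the let-7 list, the ratios other than that of miR-451a to miR-23a-3p, miR-7648-5p and the abundant miRNAs apart from C3H by share, were named after their values were seen. The libraries, members and lists were chosen with earlier results of these data known. Gene positions are from RefSeq and GENCODE on GRCm38. The comparison of months was not run, since no column gives a month. Alternatives tried were other scales, pseudocounts and filters, each spike-in alone, Pearson's r, and leaving out C3H mice or F2 libraries. Serial change within a mouse and change points were not analysed here.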

Additional observations from a re-analysis of the deposited data

Results flagged for a closer look

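In the groups of 8 HCC and 5 non-HCC C3H mice that stand beside the F2 libraries, 4 values lay farther from the nearest other mouse than Dixon's 95% critical value allows, out of 54 combinations of a measure and a group. Some HCC mice were alike in pairs (1 and 6, 2 and 5, 3 and 7), and their independence was not tested. Chance alone flags about 1 in 20 groups. HCC mouse 4 was highest in 3 of the 4. Its muscle list was at 1.47% of the miRNA UMIs, where the next mouse had 0.258%, its miR-1a-3p at 0.712%, where the next had 0.164%, and its platelet and leukocyte list at 4.10%, where the next had 2.14%. In the log2 ratio of miR-206-3p to miR-1a-3p, non-HCC mouse 4 was highest at -4.04, where the next non-HCC mouse had -5.15. That ratio in C3H stays below the lowest F2 library with and without this mouse. The F2 group is too large for this comparison of single libraries.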

How the results depend on the processing

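Of 271 values recomputed under another setting, 198 stayed within the tolerance (0.1 for rho and SD, 1.5 times for counts, the SD between libraries for shares, and the spread between non-HCC mice for the difference from C3H), 72 moved beyond it and 1 changed sign. The median SD of 1.09 became 0.67 with TMM, 0.93 with UniSP4 alone, 0.73 by share, 0.64 with TMM factors from miRNAs with a median of at least 100 UMIs (chosen after seeing the data) and 1.76 with no filter. The median rho over all pairs of 0.69 became 0.094 with TMM, 0.55 with UniSP4 alone, 0.23 by share and 0.037 with those restricted TMM factors. For miR-100-5p and let-7a-5p, rho of 0.76 became -0.12 with the same factors. The red cell share of 35.1% became 8.02% without miR-16-5p. The 65 miRNAs with F2 above C3H became 33 with TMM, 39 with UniSP4 alone, 106 by share, 282 with 10 UMIs added, 25 among miRNAs above 0 in all 66 libraries and 1 among miRNAs with a median of at least 100 UMIs in both cohorts (added after seeing the data). The 0 with F2 below became 117 with TMM, 13 with UniSP4 alone and 6 by share. The median log2 difference from non-HCC mice of 3.30 became 0.94 with TMM, 1.99 with UniSP4 alone, 0.93 among miRNAs above 0 in all 66 libraries and 0.29 among those with a median of at least 100 UMIs in both cohorts. The cause of these moves was not tested, beyond what the scales and filters themselves set. Leaving out 1 non-HCC mouse at a time gave 65 to 70 above, 0 to 0 below and a difference of 3.03 to 3.37. Without the 12 libraries lowest in miR-3971, or the 5 with a log2 ratio of miR-451a to miR-23a-3p below 0 (both added after seeing the data), the share medians, the median SD and the median rho over all pairs stayed within the tolerance. Of 40 share medians recomputed, 37 stayed within the SD between libraries, and the red cell, platelet and leukocyte, and let-7 lists did not without miR-16-5p.

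No paired analysis was possible because the F2 columns carry no mouse or month and no test between groups was run. The edgeR comparison of months was not run for the same reason. Depth limits rare miRNAs, since an entry of 0 allows up to 9 UMIs and rare entries did not scale with depth. The spike-ins limit comparisons between cohorts, since their ratio differed between F2 and C3H.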

Other observations

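MiR-184-3p, outside the lists, also varied widely between the F2 libraries. This miRNA, which is made in lens, cornea and other epithelia, was at 0.00417% to 0.431% with a median of 0.0344% (32 to 2588 UMIs). By share it was above each of the 13 C3H libraries, which had 45 to 293 UMIs at a greater depth, in all 53 F2 libraries, and in 51 on the spike-in scale. MiR-155-5p, of the platelet and leukocyte list, which is induced in activated leukocytes, was at 0.00853% to 0.0996% with a median of 0.0382%, and 39 of 53 libraries were above each C3H library by share, 21 on the spike-in scale and 0 with TMM. It went with let-7c-5p more than with miR-223-3p on each scale (rho = 0.94 and 0.81 on the spike-in scale, 0.77 and 0.37 by share).

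MiR-208b-3p went with miR-7039-5p (rho = 0.92 by share and 0.92 on the spike-in scale), while its rho with miR-206-3p was 0.25 by share and 0.22 on the spike-in scale. MiR-26b-5p had 232 to 16078 UMIs and went with let-7c-5p (rho = 0.96 on the spike-in scale and 0.79 by share). The C3H HCC mouse with the highest muscle share and the F2 library f15 had like shares of miR-1a-3p, 0.712% and 0.706%, while miR-206-3p in f15 was at 0.608% and in the HCC mice at most 0.00418%.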
